A study of Mus musculus with 36 samples.

Results

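MicroRNAs (miRNAs) were measured in the ventral and lateral prostate lobes of 30-week-old male TRAMP mice with either the A537T form of Elac2 (A537T-TRAMP, 3 libraries) or wild-type Elac2 (WT-TRAMP, 3 libraries), 6 of the 36 samples of the series. All mice of both groups carried 1 copy of the TRAMP transgene (TRAMP +/-), which expresses the SV40 T antigens from the probasin promoter, active in prostate epithelium. A537T-TRAMP mice were homozygous for an Ala537Thr change present in every cell of the body, WT-TRAMP mice were ELAC2+/+, and the strain was C56NL/6N. The comparison was set beside the same genotypes at 10 weeks (3 WT-TRAMP and 3 A537T-TRAMP libraries), beside 30-week WT and A537T mice without the transgene (3 libraries each) and beside 30-week KO-TRAMP mice (3 libraries), in which Pb-Cre deleted Elac2 in prostate epithelium only. The miRNAs described are those whose normalised counts averaged 10 or more across these 6 libraries, which held for 535 of the 1963 listed. A normalised count is the number of reads assigned to a miRNA divided by the size factor of its library. Of the other miRNAs, 759 had reads but a lower mean, and the rest had no read in the 6 libraries. MiR-23a-5p lay just below the limit with a mean of 9.98 and miR-219a-2-3p just above it with 10.2.

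A miRNA is cut from a hairpin precursor by Drosha and Dicer, and an arm of the hairpin, named 5p or 3p, is loaded into Argonaute, where bases 2 to 8 (the seed) choose the messages that are repressed. ELAC2 is the ribonuclease that trims the 3' ends of precursor tRNAs in the nucleus and in mitochondria. In TRAMP mice epithelial lesions progress to tumours, some of them with neuroendocrine features. The comparison asks how the miRNA pool of the TRAMP prostate at 30 weeks differs when Elac2 carries the A537T change.

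The miRNAs that the results turn on are shown 5' to 3' with the seed in capitals. Sequences are from RefSeq (GRCm38.p6), which held 458 of the 535 miRNAs by name, and positions are in GRCm38. The arms of miR-708 are shown first, because miR-708-3p had the smallest p in the comparison. Their hairpin lies on chromosome 7 at 96249424 to 96249532 (+ strand) in an intron of Tenm4.
miR-708-3p: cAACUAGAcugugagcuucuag
miR-708-5p: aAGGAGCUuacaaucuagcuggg

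The Dlk1-Dio3 domain of chromosome 12 is imprinted, and its many miRNAs are made from the maternal copy. Members that were higher in A537T-TRAMP are shown to make plain that they have different seeds. The miR-382 hairpin (109733771 to 109733846) overlaps an exon and the miR-409 hairpin (109743158 to 109743236) lies in an intron of the noncoding RNA Mirg. The miR-136 hairpin (109595327 to 109595388) lies opposite an exon of Rtl1, and those of miR-329 (109713481 to 109713577) and miR-493 (109580233 to 109580315) overlap no other annotated gene, all 5 on the + strand.
miR-382-3p: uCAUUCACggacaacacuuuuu
miR-409-5p: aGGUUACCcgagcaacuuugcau
miR-136-3p: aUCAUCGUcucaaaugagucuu
miR-329-5p: aGAGGUUUucugggucucuguu
miR-493-5p: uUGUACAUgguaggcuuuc

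The next set carries the seed AAAGUGC of miR-17 and is shown because different genes give nearly the same miRNA. MiR-20a comes from an exon of Mir17hg (chromosome 14, 115044157 to 115044263, + strand) and miR-106b from an intron of Mcm7 (chromosome 5, 138165737 to 138165818, - strand).
miR-20a-5p: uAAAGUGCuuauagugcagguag
miR-106a-5p: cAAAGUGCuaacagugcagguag
miR-106b-5p: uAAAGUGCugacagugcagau
miR-20b-5p: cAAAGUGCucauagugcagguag
miR-93-5p: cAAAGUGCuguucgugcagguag

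The mesenchymal miR-199a and miR-214 are shown with the p53-linked miR-34b and miR-34c, since their groups did not overlap. Mir199a-2 (162217814 to 162217923) and Mir214 (162223368 to 162223477) lie on chromosome 1 in exons of Dnm3os, opposite an intron of Dnm3, and a further miR-199a hairpin lies opposite an intron of Dnm2. Mir34b (51103562 to 51103645) and Mir34c (51103034 to 51103110) are neighbours on chromosome 9 (- strand), and their 3p arms have the same seed.
miR-199a-5p: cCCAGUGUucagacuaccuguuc
miR-214-3p: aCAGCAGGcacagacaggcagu
miR-34b-3p: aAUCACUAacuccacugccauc
miR-34c-3p: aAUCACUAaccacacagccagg

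The last set holds miRNAs that divided the WT-TRAMP libraries and the leukocyte miR-142a-3p. MiR-653 lies in an intron of Calcr (chromosome 6, 3721301 to 3721385, - strand), miR-488 in an intron of Astn1 (chromosome 1, 158505625 to 158505733, + strand) and miR-142a in an intron of Mir142hg (chromosome 11, 87756864 to 87756927, + strand).
miR-653-5p: gUGUUGAAacaaucucuacug
miR-3085-3p: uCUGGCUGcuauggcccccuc
miR-488-3p: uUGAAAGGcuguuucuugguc
miR-142a-3p: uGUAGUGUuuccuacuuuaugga

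The 6 libraries held 9090165 to 17867885 reads assigned to miRNAs and 910 to 998 detected miRNAs, with 66.5% to 72.0% of the reads in the top 10. Libraries are called by the number that heads their column, and values are given in the order 10, 11, 12 for WT-TRAMP and 13, 14, 15 for A537T-TRAMP. The epithelial miR-200a-3p had 313689, 417087 and 374456 normalised counts in WT-TRAMP and 426826, 410250 and 428473 in A537T-TRAMP, so this epithelial marker was abundant in each library.

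Library 12 did not vary like a separate sample. A weighted sum of library 10 (43.0%) and library 11 (57.0%) gave its reads, scaled to the library total, with an SD of 0.0815 for the log2 ratio of observed to summed values over 290 miRNAs. Of these, 88.6% lay within 10% of the sum and 81.7% lay between libraries 10 and 11. For the A537T-TRAMP libraries the best such sums left SDs of 0.345 to 0.550. Sums that were less close were found for WT library 21 (SD 0.128, 76.3% within 10%) and KO-TRAMP library 18 (SD 0.172, 60.1% within 10%). The counts of miRNAs and some of the single results are therefore also given without library 12. Where no such value is given, the result rests on all 3 WT-TRAMP libraries. On the first principal component, with 61.2% of the variance, library 10 scored -17.9, library 12 -10.2 and library 11 10.9, and the A537T-TRAMP libraries scored 3.09, 6.35 and 7.70. The WT-TRAMP libraries thus lay on both sides of the A537T-TRAMP libraries.

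**Figure D1:**
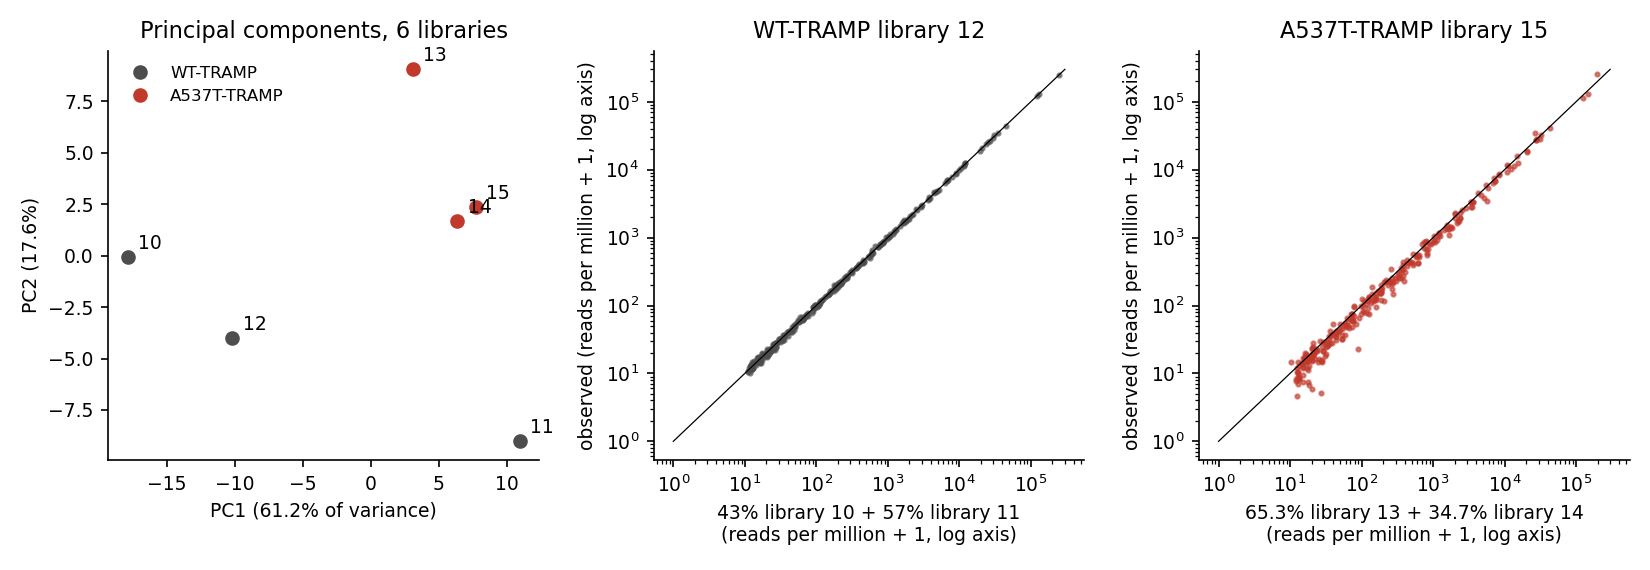
Left, the 6 libraries on the first 2 principal components of the log2 normalised counts of 535 miRNAs (WT-TRAMP grey, A537T-TRAMP red). Middle and right, observed reads (RPM plus 1, where RPM scales the reads to the library total) in WT-TRAMP library 12 and A537T-TRAMP library 15 against the best weighted sum of the other libraries of the group, with a point per miRNA, log axes and the line of equality: library 12 lies on the line (SD 0.0815 of the log2 ratio) and library 15 scatters about it (SD 0.354).

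No miRNA passed an adjusted p of 0.05 in limma (0% of 535), and 89 had an unadjusted p under 0.05, of which 46 were higher (8.60%) and 43 lower (8.04%) in A537T-TRAMP. The groups did not overlap for 61 miRNAs that were higher (11.4%) and 57 that were lower (10.7%). The edgeR quasi-likelihood test on the recovered reads called 0 at an adjusted p of 0.05 and 102 at an unadjusted p of 0.05. The DESeq2 Wald test called 19 at an adjusted p of 0.05, of which 6 were higher and 13 lower, and the groups overlapped for 5 of the 19. DESeq2 adjusted these p-values over the 856 miRNAs that passed its own filter, and adjusted over the same 535 miRNAs as limma it called 25, including all 19. Without library 12, limma gave 29 miRNAs an unadjusted p under 0.05. Without library 11 it called 30 at an adjusted p of 0.05, all lower. Below, "higher" and "lower" describe A537T-TRAMP against WT-TRAMP and are read against these shares.

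**Figure D2:**
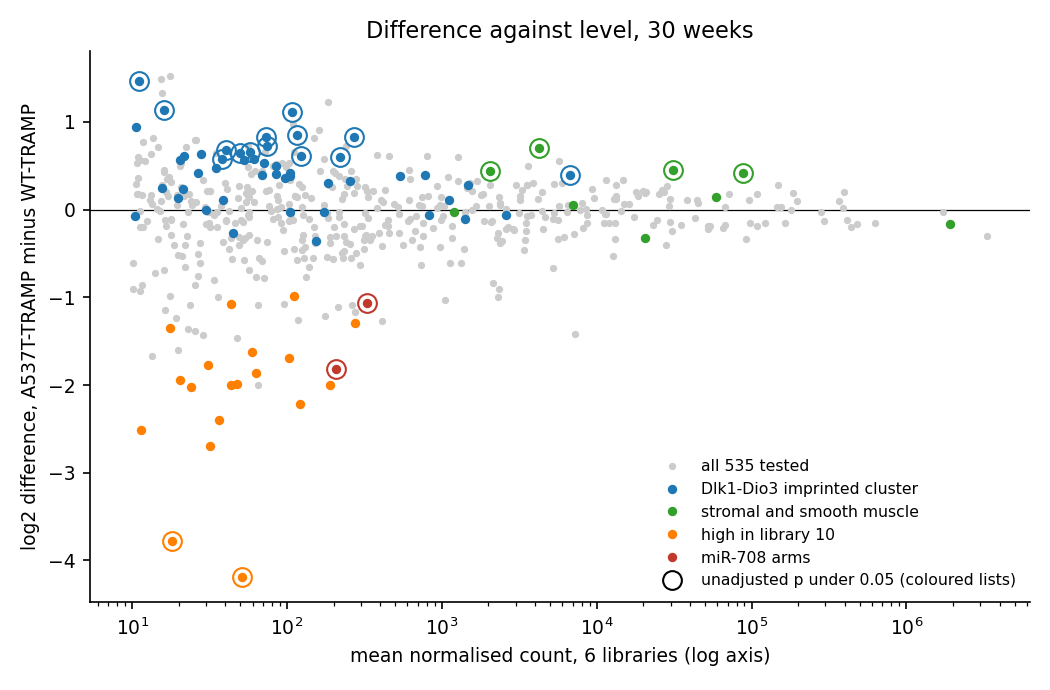
Log2 difference, A537T-TRAMP minus WT-TRAMP, against the mean normalised count over 6 libraries (log axis), with a point for each of 535 miRNAs. Colours mark the lists in the key and rings mark an unadjusted p under 0.05 within them: 40 of 48 Dlk1-Dio3 miRNAs lie above 0, and both miR-708 arms and the miRNAs high in library 10 lie below it.

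MiR-708-3p came closest to the threshold. MiR-708 is made from the gene of the transmembrane protein Tenm4 and is known to be induced by stress of the endoplasmic reticulum. MiR-708-3p had 415, 241 and 318 normalised counts in WT-TRAMP and 99.1, 82.8 and 86.5 in A537T-TRAMP, with means of 324 ± 87.3 and 89.4 ± 8.54 (SD, n = 3 each). Every A537T-TRAMP library lay below every WT-TRAMP library. The log2 difference was -1.82 ± 0.23 (SE), which is 3.52-fold lower, with an adjusted p of 0.0629 in limma and 2.24e-07 in DESeq2. Without library 12 the unadjusted p in limma was 0.000804 and the adjusted p 0.430. The other arm, miR-708-5p, had 617, 284 and 453 normalised counts in WT-TRAMP and 236, 173 and 212 in A537T-TRAMP. Its groups did not overlap either, with a log2 difference of -1.06 ± 0.30 and an adjusted p of 0.242 in limma.

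The A537T difference in miR-708-3p was not the same at 30 and at 10 weeks. In limma it was the only 1 of 473 miRNAs (0.211%) that passed an adjusted p of 0.05 for the difference between the ages, at -2.55 ± 0.37 with an adjusted p of 0.00927. At 10 weeks it had 58.0, 48.6 and 74.5 in WT-TRAMP and 73.4, 115 and 116 in A537T-TRAMP, a log2 difference of 0.73 ± 0.29 with overlapping groups. Left out in turn, the 12 libraries gave differences between the ages of -2.77 to -2.35 and adjusted p-values of 0.00416 to 0.0434, the latter without library 12. For miR-708-5p the difference between the ages was -1.35 ± 0.45, with an adjusted p of 0.273. Without the transgene at 30 weeks, miR-708-3p had 109.9, 216 and 224 in WT and 258, 99.2 and 309 in A537T, so the groups overlapped, and the log2 difference was 0.19 ± 0.49. Each table was normalised separately, and levels were not tested across tables.

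**Figure D3:**
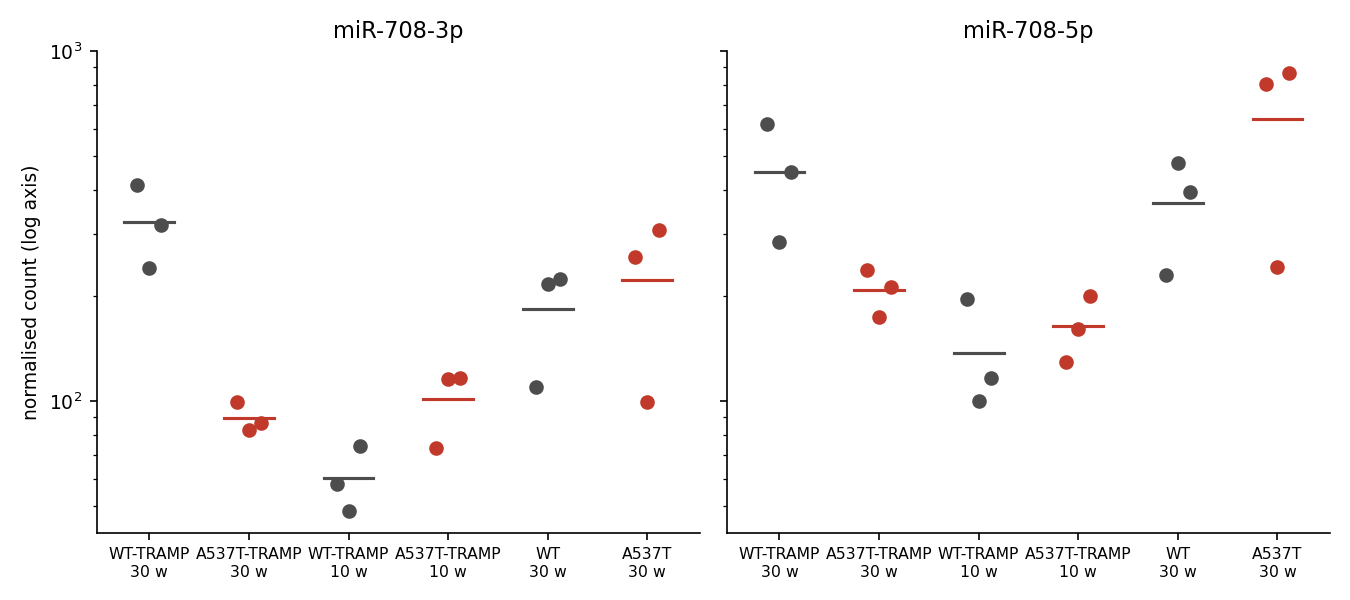
Normalised counts (log axis) of the miR-708 arms, with a point per library and a bar at the mean of each group (WT grey, A537T red). The A537T-TRAMP libraries of 30 weeks (82.8 to 99.1 for miR-708-3p) lie below the WT-TRAMP libraries of that age (241 to 415). The 10-week, 30-week and non-TRAMP pairs come from tables that were normalised separately.

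The Dlk1-Dio3 miRNAs lay mostly above 0. Of the 59 on the list, 48 were tested, 10 had reads but a mean under 10 and 1 had no read. Among the 48, 40 had a log2 difference above 0, with a median of 0.41 beside -0.02 over all 535 miRNAs. An unadjusted p under 0.05 was found for 14, all higher, where 8.60% of all miRNAs were higher by that rule. The groups did not overlap for 14, all higher, where 11.4% of all miRNAs did so. The list's summed level was 14988 to 18950 in WT-TRAMP and 17814 to 21569 in A537T-TRAMP, so the sums overlapped. Without library 12 the median was 0.49 and 6 members had an unadjusted p under 0.05. The members lie in the same domain and were counted in the same libraries, so they do not count as separate results.

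MiR-382-3p, at the 3' side of the domain, had 84.5, 76.1 and 85.1 normalised counts in WT-TRAMP and 169, 141 and 138 in A537T-TRAMP, a log2 difference of 0.85 ± 0.17. MiR-409-5p had 81.1, 46.7 and 78.8 against 153, 173 and 118, a log2 difference of 1.12 ± 0.28. MiR-136-3p, which is antisense to Rtl1, had 195, 199 and 185 against 405, 391 and 257, a log2 difference of 0.83 ± 0.20. In all 3 the groups did not overlap, and the adjusted p in limma was 0.172. Without library 12 the unadjusted p in limma was 0.00766 for miR-382-3p, 0.00948 for miR-409-5p and 0.0217 for miR-136-3p. MiR-329-5p had 61.3, 83.3 and 73.3 against 175, 147 and 112 and miR-329-3p 43.1, 59.9 and 65.2 against 99.1, 91.8 and 86.5, so both arms of that hairpin were higher without overlap. MiR-493-5p was higher at low counts, 9.11, 8.12 and 8.15 against 30.5, 28.5 and 20.7, a log2 difference of 1.53 ± 0.31. The list does not hold miR-329-5p and miR-493-5p, which lie in the same domain. MiR-127-3p, which is antisense to Rtl1 and known to repress it, had 5051, 6543 and 5738 against 7976, 8345 and 6497, with overlap between library 11 and library 15.

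Arms of the same hairpin differed in how far they went. MiR-136-5p had 92.7, 115 and 108 against 129, 94.4 and 88.9, a log2 difference of -0.03 ± 0.21 with overlap, beside the 1.78-fold higher level of its 3p arm. MiR-382-5p and miR-409-3p overlapped, with log2 differences of 0.33 ± 0.25 and 0.36 ± 0.31. The lowest members of the list were miR-370-3p at a log2 difference of -0.36 ± 0.30 and miR-431-5p at -0.26 ± 0.32.

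**Figure D4:**
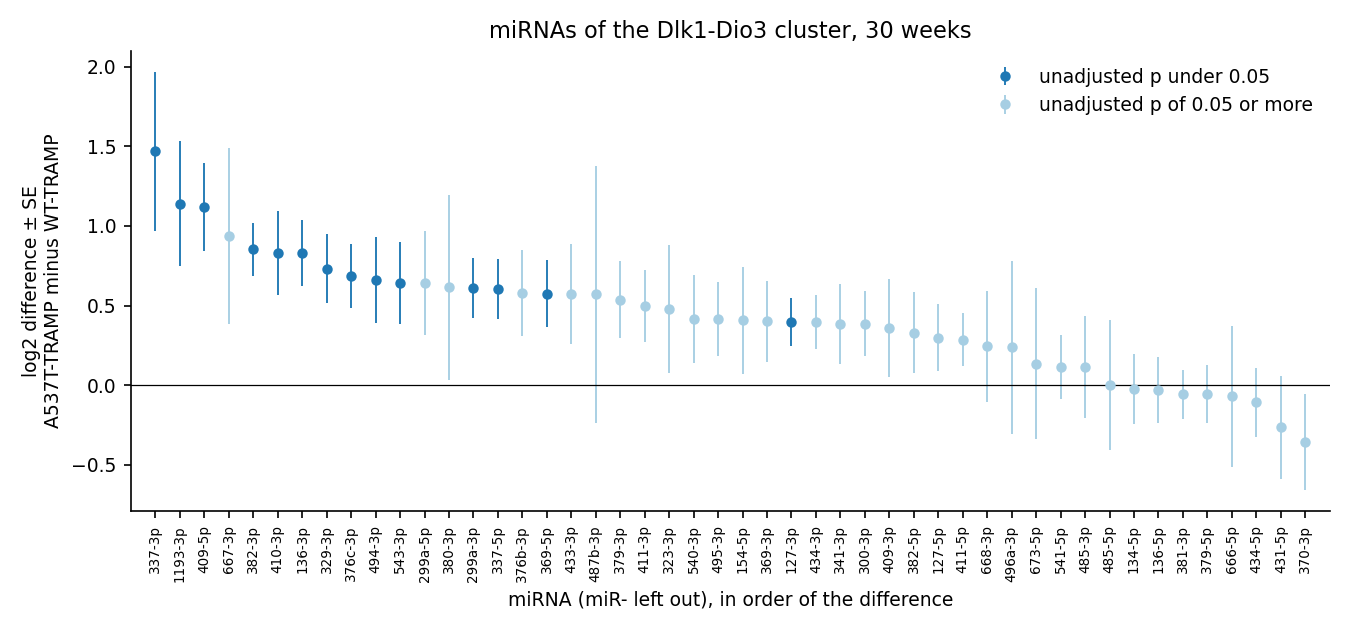
Log2 difference ± SE (limma), A537T-TRAMP minus WT-TRAMP at 30 weeks, of the 48 tested miRNAs of the Dlk1-Dio3 list, in order of the difference. Dark points mark the 14 with an unadjusted p under 0.05, all above 0, and 40 of the 48 points lie above 0.

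By position, the group from Mir379 to Mir410 (chromosome 12, 109709060 to 109743795, 24 hairpins each within 10 kb of the next) had 33 tested miRNAs, 30 of them above 0 and 11 with an unadjusted p under 0.05. The group from Mir770 to Mir136 (109563692 to 109595388) had 14, with 10 above 0 and 5 at that p. All of those at that p were higher. At 10 weeks the median of the 48 list members was -0.38, with 44 below 0, and in mice without the transgene it was also -0.38, with 40 below 0. For the difference between the ages, 23 of the 48 had an unadjusted p under 0.05, all positive, where 42 of 473 miRNAs were positive at that p. None of the 48 passed the adjustment in limma, and the smallest adjusted p among them was 0.131. The 23 are among the 42, and members of the same domain do not count as separate results. For the difference between TRAMP and non-TRAMP mice, 3 of the 48 had an unadjusted p under 0.05, all positive, where 11 of 512 miRNAs were positive and 22 negative at that p.

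Of the 9 tested miRNAs on the list for fibroblasts and smooth muscle, 4 were higher at an unadjusted p under 0.05 and none passed the adjustment in limma. MiR-199a-5p had 26378, 26177 and 25662 normalised counts in WT-TRAMP and 36137, 31807 and 39408 in A537T-TRAMP, a log2 difference of 0.45 ± 0.11. MiR-199b-5p had 2735, 3588 and 3321 against 4873, 6220.5 and 4689.6, a log2 difference of 0.71 ± 0.16, and the 3p sequence shared by miR-199a and miR-199b had 73408, 77990 and 74458 against 97204, 90767 and 115639. MiR-214-3p, made from the same transcript as miR-199a, had 1718, 1755 and 1742 against 2249, 2328 and 2512, a log2 difference of 0.44 ± 0.10. The groups did not overlap for any of these 4, the adjusted p in limma was 0.172 to 0.244, and all kept an unadjusted p under 0.05 without library 12. MiR-214-5p had 1106, 1375 and 1149 against 937, 1221 and 1452, with overlap. The smooth muscle miR-143-3p had 2770150, 1315220 and 1901770 against 2599260, 952610 and 1970450 and its neighbour miR-145a-5p 81510.4, 32712 and 52575 against 92382, 35420.4 and 58465. For both, libraries 11 and 14 were the lowest of their groups. The median of the 9 was 0.15. The list's summed level was 1481540 to 2993570 in WT-TRAMP and 1136350 to 2868230 in A537T-TRAMP. In whole tissue, more cells of a type and more RNA per cell cannot be told apart.

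Among leukocyte miRNAs, the myeloid miR-223-3p was higher, with 279.9, 322 and 289.7 normalised counts in WT-TRAMP and 424, 541 and 420.2 in A537T-TRAMP and a log2 difference of 0.63 ± 0.15. Its groups did not overlap, while those of miR-223-5p did (132, 226 and 210 against 130.4, 217 and 184). It was the only 1 of the 9 list members with an unadjusted p under 0.05, and the list's summed level was 72899 to 94422 in WT-TRAMP and 68831 to 104875 in A537T-TRAMP. MiR-142a-3p, made in all blood cell lineages, had 3381, 3862 and 3685 against 3406, 3602 and 3356, a log2 difference of -0.08 ± 0.10. In mice without the transgene it had 468, 577 and 514 in WT and 1169, 1032 and 1170.2 in A537T, without overlap, a log2 difference of 1.11 ± 0.19. Between these backgrounds the difference was -1.19 ± 0.18 (adjusted p of 0.0231 in limma), the only 1 of 512 miRNAs that passed (0.195%). Scaling to the library total gave -1.01 and an adjusted p of 0.761, and leaving out any library but 19, 20 or 26 gave an adjusted p above 0.05. For miR-142a-5p the difference between backgrounds was -1.12 ± 0.23, with an adjusted p of 0.137.

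MiRNAs with the miR-17 seed, known for promoting cell division, were all above 0. The median of the 6 was 0.37. An unadjusted p under 0.05 was found for 4, where 8.60% of all miRNAs were higher by that rule. The groups did not overlap for 5, where 11.4% of all miRNAs were higher without overlap. MiR-20a-5p had 5934, 3477 and 4548 normalised counts in WT-TRAMP and 7583, 6064 and 6495 in A537T-TRAMP, a log2 difference of 0.56 ± 0.21. MiR-106b-5p, from the replication gene Mcm7, had 3383, 3105 and 3127 against 4210.5, 3924 and 3529, a log2 difference of 0.28 ± 0.11. MiR-17-5p had 4379, 2749 and 3357 against 4504, 4331 and 3908 and was the 1 member with overlap, through library 10. None of the 6 had an unadjusted p under 0.05 without library 12. The miR-92 seed group (AUUGCAC), whose members come partly from the same precursors, had 2 of 5 members above 0 and a median of -0.23. On the wider list, from miR-17 to miR-92 with paralogues, 19 were tested and the median was 0.21. Of the 19, 4 were higher at an unadjusted p under 0.05 and 7 were higher without overlap, and 0 had that p without library 12. The list's median was 0.43 in mice without the transgene and -0.21 in TRAMP mice at 10 weeks.

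The miR-15 and miR-16 seed group (AGCAGCA) represses cell cycle genes. MiR-15a-5p, from an intron of Dleu2 (chromosome 14, 61632027 to 61632110, - strand), had 686, 617 and 593 normalised counts in WT-TRAMP and 1005, 1005 and 893 in A537T-TRAMP, a log2 difference of 0.61 ± 0.12 with an adjusted p of 0.172 in limma. MiR-15b-5p had 3333, 3195 and 3117 against 3816, 4057 and 3877, also without overlap, and miR-16-5p had 21919, 16961 and 18769 against 21512, 23562 and 20288, with overlap. Of the 6 members, 5 were above 0 and 2 had an unadjusted p under 0.05, of which miR-15a-5p still had it without library 12 (0.0148).

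On the p53-linked list, miR-34a was higher and miR-34b and miR-34c were lower. MiR-34a-5p had 1125, 892 and 965 normalised counts in WT-TRAMP and 1566, 1898 and 1145 in A537T-TRAMP, a log2 difference of 0.60 ± 0.21. MiR-34c-5p had 4548, 1873 and 2933 against 1386, 1741 and 1577, a log2 difference of -0.90 ± 0.31. MiR-34c-3p had 172, 97.5 and 124 against 54.5, 56.9 and 69.4, and miR-34b-3p had 436, 187 and 262 against 98.2, 144 and 147. The groups did not overlap in these 4, and the adjusted p in limma was 0.172 to 0.267. Without library 12 the unadjusted p was 0.0656 for miR-34a-5p, 0.0540 for miR-34c-5p, 0.0144 for miR-34c-3p and 0.0304 for miR-34b-3p. MiR-34b and miR-34c are made from a common transcript that is abundant in multiciliated cells, and miR-34a from a hairpin of its own on chromosome 4. MiR-34b-5p overlapped, with 229, 86.3 and 147 against 103, 106 and 109.6. Library 10 was the highest and library 11 the lowest WT-TRAMP library in each of the 4 arms of miR-34b and miR-34c.

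A set of miRNAs, several of them known from neurons, divided the WT-TRAMP libraries. In 19 of the 535, library 10 was at least 4-fold above library 11 and above each A537T-TRAMP library, and in all 19 library 12 lay between. MiR-653-5p had 75.4, 0 and 32.6 normalised counts in WT-TRAMP and 0, 0 and 0 in A537T-TRAMP. MiR-3085-3p had 223, 1.02 and 81.5 against 1.65, 1.29 and 0. MiR-488-3p, made from the neuronal gene Astn1, had 638, 29.4 and 322 against 49.5, 58.2 and 31.7. The neuronal miR-124-3p had 397, 2.03 and 162 against 27.2, 67.2 and 12.2, and miR-153-3p, also known from neurons, had 154, 7.11 and 90.5 against 14.9, 12.9 and 7.31. In each of these, library 11 lay within or below the range of the A537T-TRAMP libraries, so the groups overlapped. The set was chosen by these values and carries no test. For some members a wide spread was not confined to WT-TRAMP, in tables that were normalised separately. In KO-TRAMP, miR-344-3p of the set had 13.8, 2183 and 1644 normalised counts and miR-488-3p had 43.8, 478 and 394. MiR-653-5p, with 1.25, 3.35 and 0.818, and miR-124-3p, with at most 6.71, stayed low there. In WT mice without the transgene, miR-124-3p had 8.71, 252 and 203, while miR-672-5p of the set had 118, 98.7 and 133.

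**Figure D5:**
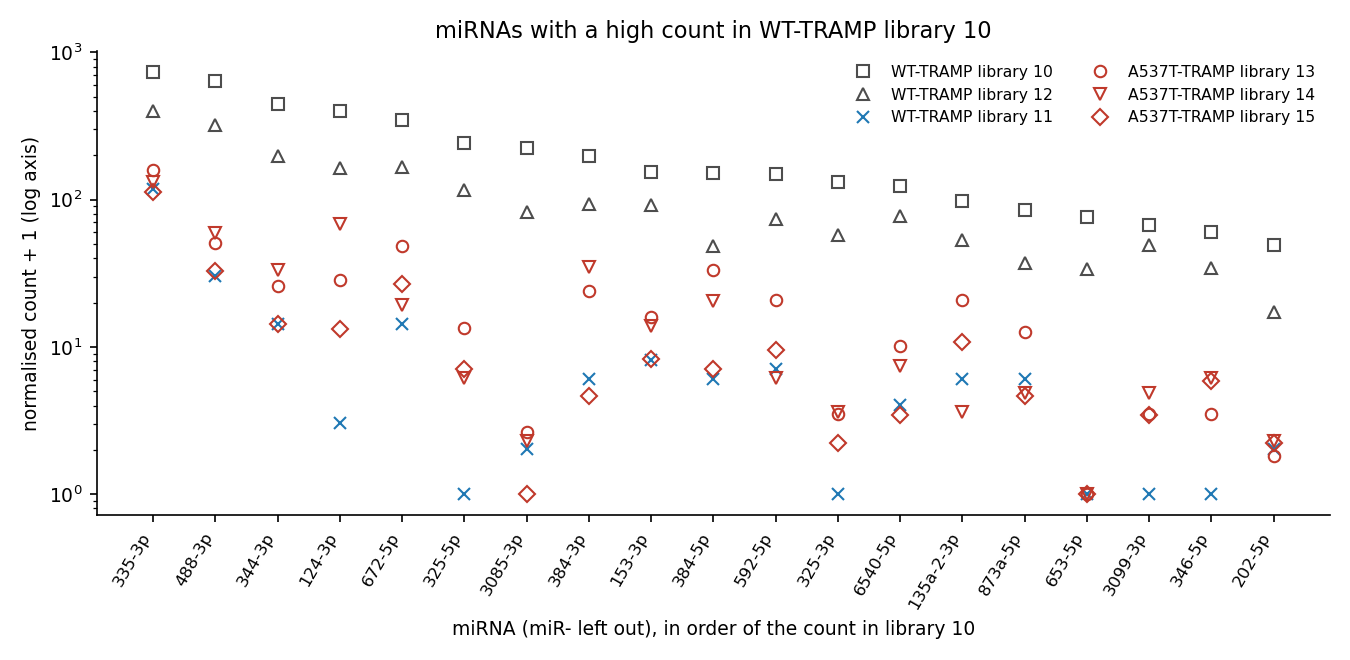
Normalised count plus 1 (log axis) of the 19 miRNAs that were at least 4-fold higher in WT-TRAMP library 10 than in library 11 and in each A537T-TRAMP library, in order of the count in library 10. Grey squares are library 10, grey triangles library 12, blue crosses library 11 and red symbols A537T-TRAMP: library 12 lies between library 10 and all others for each of the 19.

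The neuroendocrine and neural marker list was mixed. Of 9 tested members, 3 were above 0 and 6 below, with a median of -0.18. The sign of that median turned on single libraries, since it was -0.77 without library 11, 0.52 without library 10 and 0.04 without library 12. MiR-375-3p, of islets and neuroendocrine cells, had 45423, 9929.9 and 26417 against 41390.1, 17073 and 29782, and the neural miR-9-5p had 13634, 1306 and 6945 against 3439, 3995 and 2240. Both overlapped, with library 10 highest and library 11 lowest. MiR-129-2-3p was the 1 member with an unadjusted p under 0.05 and was higher, with 12.4, 4.06 and 9.05 against 25.6, 29.7 and 12.2 and overlap. The list's summed level was 64618 to 123220 in WT-TRAMP and lay within that range, at 83824 to 87715, in A537T-TRAMP. Of the 30 miRNAs called without library 11, 16 belong to the set of 19 and 21 overlapped between the groups once library 11 was counted. Both arms of miR-708, miR-128-3p, miR-135b-5p, both arms of miR-34c and miR-34b-3p were also among the 30, and each of these 7 was above every A537T-TRAMP library in library 11 too. The part of the neural set in these differences was not tested.

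Other miRNAs were lower without overlap. MiR-128-3p, enriched in brain and made within R3hdm1 and Arpp21, had 13966, 6564 and 11042 normalised counts in WT-TRAMP and 4018, 2504 and 5309.6 in A537T-TRAMP, a log2 difference of -1.41 ± 0.36. MiR-135b-5p, from an intron of Lemd1, had 734, 428 and 589 against 179, 309 and 236, a log2 difference of -1.27 ± 0.27. MiR-1198-5p, from an intron of Gripap1, had 1285, 1421 and 1357 against 791, 898 and 988, a log2 difference of -0.61 ± 0.13. For miR-1198-5p the libraries of each group lay close together, while for miR-128-3p library 11 was the lowest of WT-TRAMP. MiR-5099 had 2320.2, 3156 and 2693 against 1312, 1366 and 1922 and miR-1981-5p, from an intron of Marc2, had a log2 difference of -0.63 ± 0.16 without overlap. In limma the adjusted p of these 5 was 0.172 to 0.184. MiR-212 and miR-132, which share a CREB-induced transcript, had 3 of 4 arms lower at an unadjusted p under 0.05, with miR-132-3p at 1211, 1015 and 1104 against 872, 925 and 694 and miR-212-5p at 123, 154 and 140.3 against 108, 82.8 and 88.9. Without library 12 none of the 4 arms had that p, and with scaling to the library total 1 had it.

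The arms of miR-151, from an intron of the kinase gene Ptk2, went opposite ways. MiR-151-3p had 12628, 17328 and 15288 normalised counts in WT-TRAMP and 8919, 10325 and 12238 in A537T-TRAMP, a log2 difference of -0.52 ± 0.17. MiR-151-5p had 1061, 875 and 934 against 1289.6, 1275 and 1140.1, a log2 difference of 0.37 ± 0.13. Neither overlapped, and without library 12 the unadjusted p was 0.0576 for the 3p and 0.0894 for the 5p arm. Of the 176 hairpins with both arms tested, 106 had arms of the same sign. Both arms had an unadjusted p under 0.05 in 8, of which 7 had the same sign and miR-151 was the other. Across the 176 pairs the log2 differences of the arms had a Pearson correlation of 0.63, which describes arms counted in the same libraries.

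Among the remaining lists, the X-linked miR-322 and miR-503 cluster had all 9 tested members below 0, with a median of -0.55 and 2 at an unadjusted p under 0.05. MiR-503-5p, known to slow the cell cycle, had 161, 29.4 and 98.7 against 53.7, 37.5 and 45.1, with library 11 below all A537T-TRAMP libraries. Without library 12 no member of the cluster had that p, and the median was -0.32 without library 10. The 7 miR-181 arms on the list were all below 0, with a median of -0.29 and none at that p, while miR-181b-1-3p, which is not on the list, had 17.4, 8.12 and 15.4 against 23.1, 14.2 and 18.3, a log2 difference of 0.45 ± 0.40 with overlap. The 3p arms of miR-29, which represses collagen genes, were all above 0, and miR-29a-3p had 124957, 139867 and 133821 against 171361, 159863 and 154813 without overlap. MiR-29c-5p, not on that list, was lower without overlap, at 736, 683 and 734 against 533, 600.1 and 568 and a log2 difference of -0.34 ± 0.12. Its unadjusted p was 0.0234, and 0.101 without library 12. Scaled to the total, the medians of these 3 lists were -0.45, -0.19 and 0.39. On the epithelial list 1 of 9, the keratinocyte miR-203-3p, had that p, with 12904, 13225 and 13324 against 17346, 14965 and 17580.5. Neither it nor miR-29a-3p had that p without library 12, where it was 0.0609 and 0.0889. No member of the let-7, miR-30, miR-21, miR-148, erythroid, skeletal muscle or endothelial lists had an unadjusted p under 0.05 in limma. The 10 most abundant miRNAs of the libraries all overlapped, with log2 differences from -0.30 for miR-148a-3p, at 3394460, 3797290 and 3677600 against 2894170, 2285310 and 3858980, to 0.20 for miR-200a-3p.

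The text of the study names miR-338-3p, miR-122-5p, miR-676-5p, miR-10a-5p, miR-669c-5p and miR-383-5p for other mice of the series. It gives miR-10a-5p as elevated, and miR-122-5p, miR-383-5p and miR-338-3p as reduced, in KO and A537T mice. MiR-669c-5p and miR-676-5p are given as reduced in KO-TRAMP mice. For A537T-TRAMP mice it reports elevated miRNAs with reduced Cdo1 and Tns1 mRNA, and reduced miRNAs with increased mRNAs such as Sparc and Nox4. It names no miRNA for these targets, and its miRNA tests used DESeq2 and not limma. None of the miRNAs named above is given for A537T-TRAMP mice. The authors knew the samples used here too, so the direction of these miRNAs is no independent evidence. MiR-383-5p had a mean under 10 and was not tested. MiR-338-3p, from an intron of Aatk, was higher without overlap, with 144, 96.5 and 96.9 normalised counts in WT-TRAMP and 247, 203 and 180.3 in A537T-TRAMP and a log2 difference of 0.91 ± 0.22. The liver miRNA miR-122-5p was lower without overlap, with 38.9, 154 and 124 against 18.2, 36.2 and 15.8, a log2 difference of -2.00 ± 0.58 and an adjusted p of 0.246 in limma. At 10 weeks miR-122-5p had 19.9, 25.9 and 20.1 in WT-TRAMP and 439, 73.1 and 68.4 in A537T-TRAMP, the reverse order without overlap, and the difference between the ages was -4.53 ± 0.97 with an adjusted p of 0.131. MiR-676-5p had 571, 719 and 618 against 452, 460.4 and 532 without overlap. MiR-122-5p and miR-676-5p both had an unadjusted p under 0.05 in limma, and without library 12 only 1 of these 2 had it. MiR-10a-5p had 258090, 120666 and 183205 against 257168, 111468 and 246527 and miR-669c-5p, which has near-identical copies among which its reads may be divided, had 196, 141 and 169 against 159, 137 and 113, both with overlap.

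KO-TRAMP was compared with the same 3 WT-TRAMP libraries, in a table normalised on its own, so its values stand beside those of A537T-TRAMP without a test. MiR-708-3p had 52.5, 824 and 507 normalised counts in KO-TRAMP, a log2 difference of -0.20 ± 1.02, so its libraries lay on both sides of WT-TRAMP. Within KO-TRAMP and within WT-TRAMP, the libraries stood in the same order for miR-708-3p as for miR-488-3p. A link between these miRNAs was not tested. The Dlk1-Dio3 list had 44 of 46 members above 0 in KO-TRAMP and 40 of 48 in A537T-TRAMP, with medians of 0.56 and 0.41. MiR-382-3p had 140.1, 239 and 181 in KO-TRAMP, a log2 difference of 1.12 ± 0.25, and miR-409-5p had 115, 203 and 195, a log2 difference of 1.27 ± 0.34. MiR-34c-3p had 86.3, 42.5 and 61.3, a log2 difference of -1.09 ± 0.35. MiR-338-3p had 62.5, 180 and 114, a log2 difference of -0.05 ± 0.42.

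With each library scaled to its total in place of the deposited size factors, the median of all log2 differences moved by 0.105, and of 74 miRNAs with an unadjusted p under 0.05, 54 were higher and 20 lower. The 89 miRNAs above kept their direction under that scaling, and 60 of them kept an unadjusted p under 0.05 in limma.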

How the data were processed

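Small RNA libraries (Illumina TruSeq Small RNA kit, NovaSeq) were made from 3 samples per group, which the labels give as numbered replicates from littermate-matched mice. P-values measure the spread between these samples. WT-TRAMP library 12 lay close to a weighted sum of libraries 10 and 11. P-values with all 3 libraries may therefore not rest on 3 separate samples. The same holds for the difference between backgrounds through WT library 21, which lay near a weighted sum of libraries 19 and 20 (SD 0.128). The authors merged read pairs and removed adapters with BBMerge, counted reads with mirDeep2 against GRCm38 and miRBase, and summed identical miRNAs. The deposited values are a signal in whole reads divided by DESeq2 size factors, in a separate table for each comparison. Multiplying by the factors gave whole reads for 100% of values (tolerance 0.01 reads). The authors' fold changes and s-values in the same tables were not used.

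Columns name a library but no replicate, so libraries were grouped by the table they stand in, and 0 columns were left unmatched. "Mut" in the tables was read as A537T. Elac2 mRNA is not measured by these libraries. Differences were tested on log2(normalised count + 1) with limma 3.58.1 (empirical Bayes with a variance trend, two-sided) in R 4.3.3, with Benjamini-Hochberg adjustment over all miRNAs with a mean of at least 10. A fold on this scale understates the change of low miRNAs. The differences between ages and between backgrounds were interactions in a fit of 12 libraries. Alternatives were edgeR 4.0.16, DESeq2 1.42.0, another pseudocount, other filters and scalings, and each library left out in turn. DESeq2 p-values were adjusted over the miRNAs passing its own filter. The scripts were tested on simulated data.

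The members and lists were chosen with earlier results of these data known. The text draws on miRNAs taken by a naming rule and does not name all of them. The rule took those past an adjusted p of 0.05. It took the 10 in each direction with the smallest p among those without overlap and a mean of at least 100. It also took their other arms, up to 5 per interaction, the 10 most abundant and those the study names. From each list it took the 2 most abundant and the 2 with the smallest p. The Hox cluster, miR-23/27/24, miR-183/96/182, miR-99/100/125, miR-221/222, miR-378, mirtron and Sfmbt2 lists are among those not described as lists. Some of their members had an unadjusted p under 0.05 in limma. MiR-653-5p, miR-3085-3p, miR-488-3p, miR-493-5p and the other miRNAs given to show overlap or a partner arm were chosen after their values were seen. Counting error alone does not cover the spread between samples.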

Additional observations from a re-analysis of the deposited data

Results flagged for a closer look

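For miR-708-3p, the A537T difference in TRAMP mice was not the same at the 2 ages by a test of that difference itself. Subtracting the log2 difference at 10 weeks from that at 30 weeks left -2.55 ± 0.37 (limma adjusted p of 0.00927 over 473 miRNAs). At 30 weeks the 3 A537T-TRAMP libraries lay below the 3 WT-TRAMP libraries, and at 10 weeks the groups overlapped. The call held when each of the 12 libraries was left out in turn, with an adjusted p of 0.0434 in limma without library 12. WT-TRAMP library 12 lay near a weighted sum of libraries 10 and 11. The p-value may therefore not rest on 3 separate WT-TRAMP samples at 30 weeks.

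For miR-142a-3p, the A537T difference at 30 weeks was not the same in TRAMP mice and in mice without the transgene. The difference between the backgrounds was -1.19 ± 0.18 on the log2 scale, with an adjusted p of 0.0231 in limma over 512 miRNAs. All 3 A537T libraries lay above the 3 WT libraries without the transgene, while the TRAMP groups overlapped. The call held in 3 of the 12 leave-one-out fits. It did not hold with scaling to the library total or without a variance trend. WT-TRAMP library 12 and WT library 21 each lay near a weighted sum of the other libraries of their group. The p-value may therefore not rest on 3 separate samples in these groups.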

How the results depend on the processing

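No paired analysis was possible because the columns carry a library number and no replicate number. The count of miRNAs with an adjusted p under 0.05 at 30 weeks, 0 in limma, was 1 with no filter on low values, 1 with TMM scaling, 19 with DESeq2 and 25 with DESeq2 adjusted over the miRNAs limma tested, an alternative chosen after seeing the data, and 0 to 30 with a library left out (30 without library 11). The count at an unadjusted p under 0.05, 89, was 54 of 325 with a mean of at least 100 and 29 to 96 with a library left out (29 without library 12, 45 without library 13). For the difference between ages, the adjusted count of 1 was 0 with a mean of at least 100, where miR-708-3p was not tested, and 1 to 9 with a library left out (2 without 10, 9 without 11, 6 without 4). Its unadjusted count of 74 was 47 with a mean of at least 100 and 41 to 106 with a library left out (41 without 13, 46 without 5, 47 without 12, 49 without 1). For the difference between backgrounds, the adjusted count of 1 was 0 with scaling to the total, 0 without a variance trend and 0 to 11 with a library left out (11 without 19, 3 without 26). Its unadjusted count of 33 was 18 with a mean of at least 100, 21 with scaling to the total and 14 to 91 with a library left out (91 without 26, 82 without 19, 52 without 11, 14 without 25, and 15 to 21 without 10, 12, 13, 21 or 27). The cause of these moves was not tested. The 46 miRNAs taken by the naming rule and with an unadjusted p under 0.05 kept their direction in 683 of 683 values. Of these values, 24 had an adjusted p under 0.05 by the test of their setting. The 46 passed that p in the same libraries, so a kept direction carries little weight. Of 27 list medians, 4 changed sign with scaling to the total and 9 with a library left out. Counts near the limit of 10 rest on the fewest reads, most of all in library 14.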
